A study of Emiliania huxleyi with 18 samples.

Results

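The genes described here lost transcript at both steps of a 13-day culture of the marine alga Emiliania huxleyi, and their decline was flatter under weak UV. Under UV they stood lower than in control cultures on days 7 and 10 and higher on day 13. They were chosen from these values, so the pattern itself is how they were found and not a result. Of the 41734 genes in the table, 14399 had at least 500 unique molecular identifiers (UMIs, tags that count captured RNA molecules) over all libraries. Among these, 797 fell by at least 0.7 on the log2 scale in control cultures from day 7 to day 10 and again from day 10 to day 13, with more than 10 UMIs pooled over control day 13. The UV criteria were a difference from control of -0.25 or lower on day 7 and on day 10 and of 0.25 or higher on day 13 (log2). They were met by 277 genes, and the 200 with the largest gain of the UV difference between days 7 and 13 are the members.

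The cultures were axenic CCMP3266, a strain of this coccolithophore, and every group shared 18 °C, L1 medium without silicate in artificial sea water and a cycle of 16 h light and 8 h dark. The UV day 7, UV day 10 and UV day 13 groups also stood under a lamp that emitted UV during 14 h of each light period (0.5 W per m2 UV-A, 0.07 W per m2 UV-B and 0.026 W per m2 UV-C), and the control day 7, control day 10 and control day 13 groups had growth light alone. Each of the 6 groups held 3 bulk MARS-seq2.0 libraries. All came from 1 strain, and the labels do not say whether the triplicates were separate cultures, so the spread between libraries may be partly technical.

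Coccolithophores are unicellular algae that cover themselves with calcite scales and live by photosynthesis in sunlit surface water. In a batch culture such cells divide until nutrients or light run short, and transcripts used in growth commonly decline as the culture ages. UV-B damages DNA and the photosynthetic machinery, while algae also sense it and adjust gene expression to it. The files pair none of the members with a gene name or description, and 0 of the 41734 identifiers matched the RefSeq gene table of strain CCMP1516, so members are given by identifier, no function is ascribed to them and the strain could not be checked against marker genes. In bulk libraries, less transcript in every cell and fewer cells carrying it cannot be told apart.

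Library totals ran from 1060640 UMIs (UV day 7 replicate 1) to 9216603 UMIs (UV day 7 replicate 3). Replicates 1 and 2 of both arms on day 10 gave 0.870 to 0.876 UMIs for each read and the remaining libraries 0.6998 to 0.795, and each arm's day 10 replicate 3 was deeper, so day 10 values are also given within these 2 kinds of library. Levels are CPM, a gene's count in 1000000 UMIs of a library, with library totals over the 14399 genes after TMM scaling, which trims the most changed genes before it compares library composition. The scaling factors were 0.935 to 0.944 in UV day 7 and 0.823 to 0.886 in control day 7 libraries. With total-count scaling in their place, the median UV difference of all 14399 genes on day 7 was 0.11 on the log2 scale, against -0.03 with TMM, and that of the members was -0.35 against -0.49. Relative to the median of all genes, that of the members was -0.46 under either scaling.

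As a group the members were abundant on day 7 and scarce on day 13. They held 2.53%, 2.92% and 2.89% of the UMIs in the UV day 7 libraries and 3.67%, 3.84% and 3.33% in the control day 7 libraries. On day 10 they held 1.19%, 1.28% and 1.03% in UV and 1.54%, 1.85% and 1.83% in control libraries. On day 13 the shares were 0.695%, 1.01% and 0.70% in UV and 0.431%, 0.482% and 0.593% in control libraries. The 2 arms did not overlap on any day, and their order turned round between days 10 and 13. Within UV day 13, replicate 2 stood above the other 2 libraries.

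**Figure D1:**
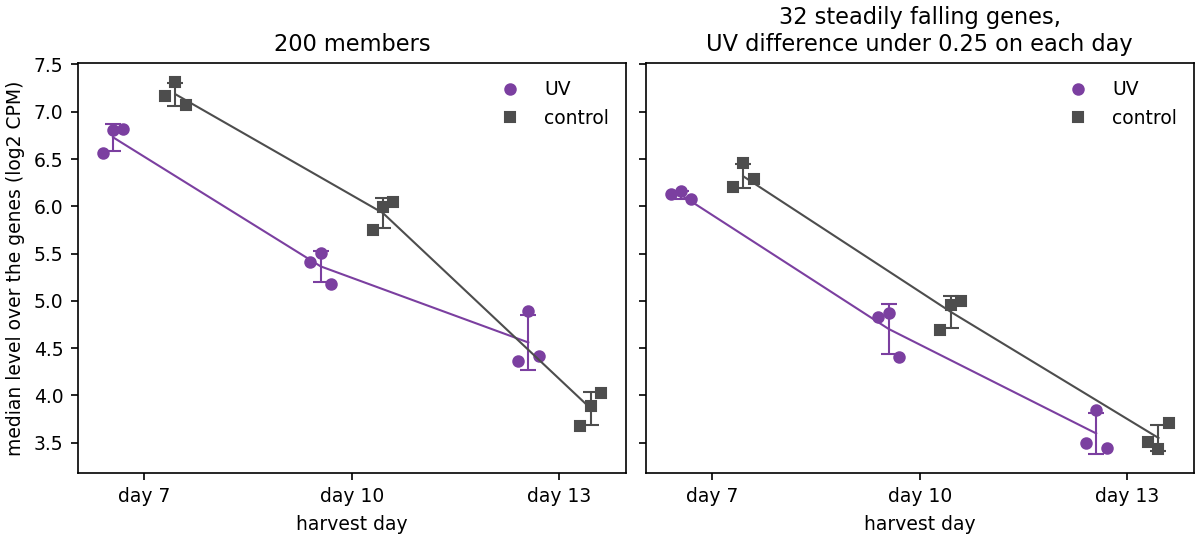
Median level in log2 CPM over the 200 members (left) and over 32 steadily falling genes whose UV difference was under 0.25 in size on each day (right), by harvest day; points are libraries, lines join group means and bars are ± 1 SD (n = 3). In the left panel the UV libraries lie below the control libraries on days 7 and 10 and above them on day 13, with group means of 4.56 ± 0.29 and 3.86 ± 0.18 log2 CPM on day 13.

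The difference between the arms lay mainly in the later step. The median member changed by -1.40 under UV and by -1.23 in control cultures between days 7 and 10, and by -0.68 under UV and -1.98 in control cultures between days 10 and 13 (log2 differences of group means). Control cultures fell faster in the later step than in the earlier one for 166 of the 200 members, whereas UV cultures did so for 32. The criteria fix a shallower later step under UV for every member. The early step was steeper under UV for 133 of 200. The criteria do not fix this direction, but they bound the day 7 and day 10 differences behind it. This count too is a description. On day 13 the median member kept 22.6% of its day 7 CPM under UV (range 4.25% to 89.7%) and 9.72% in control cultures (range 1.71% to 33.4%). A fall of at least 8-fold from day 7 to day 13 was seen in 28 members under UV and in 127 in control cultures. The criteria for days 7 and 13 require a smaller fall under UV, so these shares and counts are a description.

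The members were not alike in how far the decline was flattened. Under UV, 111 of the 200 were called lower on day 13 than on day 10 by edgeR's quasi-likelihood test (adjusted p below 0.05 over 18196 genes, of which 10.9% were called lower), and in control cultures all 200 were (14% of all genes). For the step from day 7 to day 10 all 200 were called lower under UV (19.8% of all genes) and all 200 in control cultures (20.4% of all genes). These steps follow from the criteria and are a description. The median fitted later step under UV was -0.62 (log2) with all libraries and -0.81 without UV day 13 replicate 2. Without UV day 13 replicate 1 or 3 it was -0.55 or -0.50. With all libraries the later step under UV was smaller than 0.7 in 102 members, and in 28 the UV mean did not fall at all.

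By edgeR's test 4 of the 200 members, all among these 28, were called higher in UV day 13 than in UV day 10 libraries. Of all genes tested, 9.14% were called higher. These 4 members were picked out after their values were seen. G26192 had 8.03, 11.7 and 4.19 CPM in UV day 13 libraries and 3.57, 4.90 and 3.71 CPM in UV day 10 libraries. G6476 had 9.69, 16.3 and 11.1 CPM in UV day 13 and 7.74, 7.97 and 5.37 CPM in UV day 10 libraries. All UV day 13 libraries of both genes except G26192 replicate 3 lay above every UV day 10 library. These were also the only 2 members whose UV day 13 mean reached their control day 10 mean, which was 6.10 ± 3.11 CPM for G26192 and 10.0 ± 1.86 CPM for G6476 (SD, n = 3). The other 2 were G39046, at 25.3 ± 8.01 CPM in UV day 13 and 14.5 ± 1.20 CPM in UV day 10, and G27826, at 24.4 ± 4.73 and 17.6 ± 2.28 CPM on the same days (SD, n = 3 each).

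**Figure D2:**
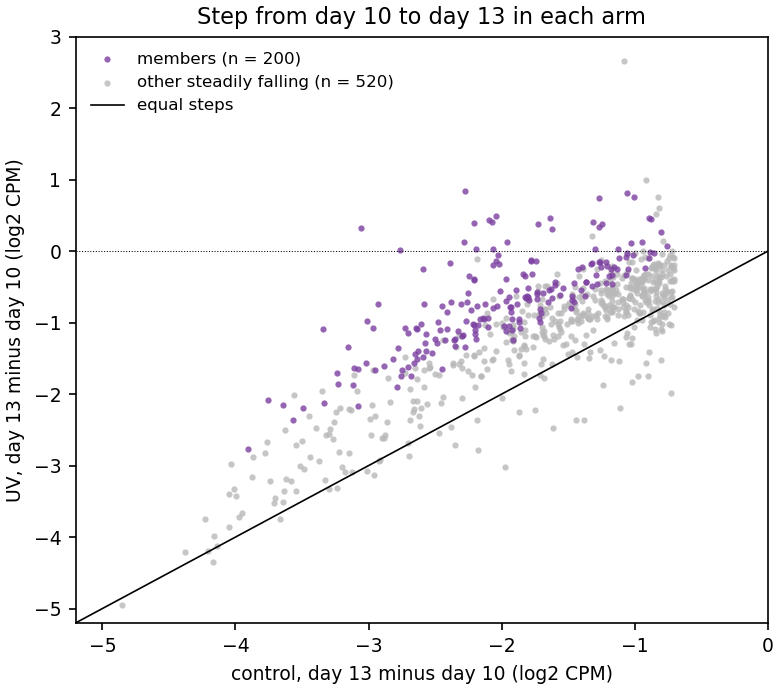
Change in log2 CPM from day 10 to day 13 under UV (vertical axis) against the same change in control cultures (horizontal axis); purple points are members and grey points the 520 other steadily falling genes, the solid line marks equal steps and the dotted line no change under UV. All 200 members lie above the line of equal steps, as the criteria require, and 28 members lie on or above the dotted line.

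Against control cultures of the same day, the members had median fitted log2 fold changes of -0.47 on day 7, -0.67 on day 10 and 0.64 on day 13. The medians over all 18196 genes tested were -0.02, 0.01 and -0.00424. On day 7, 65 of 200 members were called lower under UV, where 1.72% of all genes were. On day 10 it was 93 members, where 1.88% of all genes were called lower, and on day 13 78 members were called higher, where 1.54% of all genes were. The gain of the UV effect from day 7 to day 13 was called above 0 for 155 members, where 3.18% of all genes were. No member was called in the opposite direction in any of these 4 comparisons. All 4 entered the choice of members, so the counts say how large the differences were against the spread between libraries and nothing more.

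These counts moved when single libraries were left out, and the counts over all genes, which were 313 lower on day 7, 342 lower on day 10 and 281 higher on day 13, moved with them. On day 7, 11 members and 59 of all genes were called without control replicate 2, 25 and 124 without control replicate 1, and 105 and 541 without control replicate 3. Without any 1 of the 3 UV libraries 20 members were called, with 67 to 108 of all genes. Without UV day 13 replicate 2, which belongs to neither day 7 group, 109 members and 486 of all genes were called on day 7, and with total-count scaling 6 and 35. On day 10, 23 members and 99 of all genes were called without UV replicate 3, 32 and 138 without control replicate 3, and 54 and 187 without control replicate 2. Within the shallow replicates 1 and 2 it was 4 members and 24 of all genes, and within replicate 3, whose single libraries were taken to vary as the other groups did, 57 and 198. The median UV difference on day 10 was -0.48 within replicates 1 and 2 and -0.86 within replicate 3. On day 13, 23 members and 105 of all genes were called without UV replicate 2, 39 and 150 without control replicate 1, and 44 and 140 without control replicate 2. For the difference between days 13 and 7 the count of members stayed at 115 to 182 over all 26 alternatives. The count of all genes called higher moved further. It was 579 in the main run, 251 with total-count scaling (115 members) and 770 without the low-count filter (182 members).

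**Figure D3:**
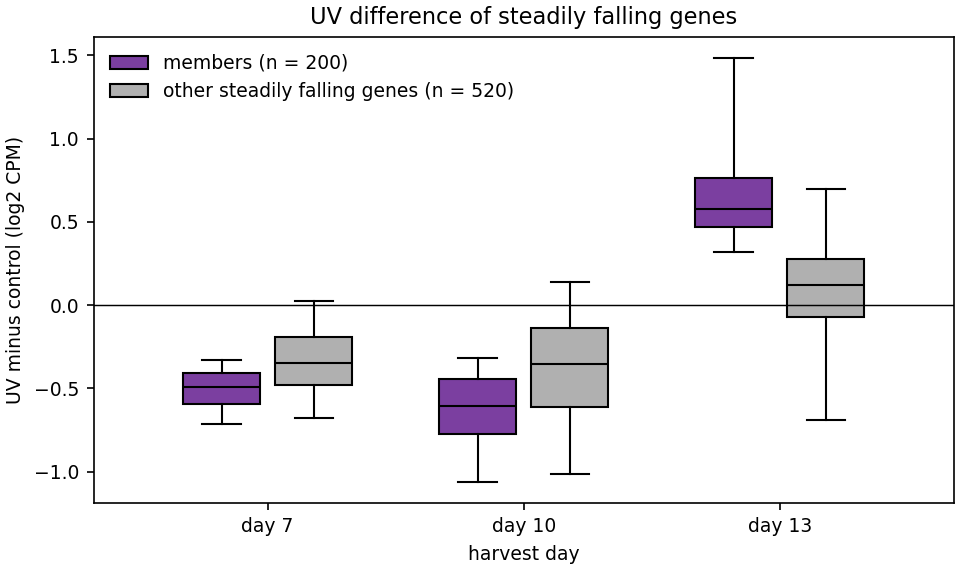
UV minus control in log2 CPM on each day for the 200 members and for the 520 other steadily falling genes that did not meet every UV criterion; boxes span the quartiles with the median, whiskers the 5th to 95th percentiles. The medians of the members were -0.49, -0.61 and 0.58 on days 7, 10 and 13, and those of the other steadily falling genes -0.35, -0.35 and 0.12.

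Every UV library lay below every control library for 174 members on day 7 (13.8% of the 14399 genes) and for 130 on day 10 (8.76%), and above for 134 on day 13 (11%). All 3 held together for 83 members (1.13% of the 14399 genes). The arms of 6 members overlapped on every day, for which no share over all genes was computed. Calls for UV against control came on all 3 days for 21 members (0.126% of the 18196 genes tested, in the same directions), on days 7 and 10 but not 13 for 25 (0.539%), on day 13 alone for 32 (1.19%), and on no day for 56 (95.9%). Of these 56, 20 were still called for the difference between days 13 and 7 (0.94% of all genes tested). Among the 100 members with the higher mean CPM (66.3 to 655) 93 were called for that difference, and among the 100 with the lower mean CPM (6.05 to 64.2) 62 were. The median day 13 differences of these sets were 0.52 and 0.62, and their median UMIs pooled over control day 13 were 593 and 90.5. Shares of all genes called at these levels were not computed, and whether depth set the difference in calls was not tested.

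The widest turn belonged to G13865 and G28849. G13865 had 23.5, 24.1 and 25.5 CPM in UV day 7 and 36.1, 47.4 and 36.8 CPM in control day 7 libraries. On day 10 it had 4.76, 6.74 and 2.78 CPM in UV and 10.9, 11.4 and 11.8 CPM in control libraries. On day 13 it had 5.54, 8.06 and 4.19 CPM in UV and 0.701, 1.20 and 1.08 CPM in control libraries. The arms did not overlap on any day, and the gene had 19 UMIs in all over control day 13. From day 7 to day 13 its log2 fold change under UV gained 3.26 (SE 0.37).

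G28849 had 60.3, 62.8 and 62.0 CPM in UV day 7 and 132, 151 and 105 CPM in control day 7 libraries. On day 10 it had 32.2, 31.9 and 32.4 CPM in UV and 43.7, 62.9 and 72.7 CPM in control libraries, and on day 13 27.1, 45.8 and 27.4 CPM in UV and 7.01, 7.18 and 11.1 CPM in control libraries. Under UV its day 10 and day 13 means were 32.1 ± 0.281 and 33.4 ± 10.7 CPM (SD, n = 3 each), so the mean did not fall. The UV day 13 libraries at 27.1 and 27.4 CPM lay below every UV day 10 library, and the library at 45.8 CPM lay above them. Whether G28849 kept falling under UV therefore differed between libraries. From day 7 to day 13 its log2 fold change under UV gained 3.04 (SE 0.28).

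Of the other members, G25844 and G23813 had the largest fitted log2 fold changes on day 13. G25844 had 8.59, 15 and 7.89 CPM in UV day 13 and 1.58, 2.74 and 3.12 CPM in control day 13 libraries, a log2 fold change of 2.09 (SE 0.27). G23813 had 4.15, 3.48 and 3.45 CPM in UV day 13 and 0.350, 0.855 and 1.36 CPM in control day 13 libraries, a log2 fold change of 1.99 (SE 0.38), from 48 and 17 UMIs over the UV and control groups. Both sets of UV libraries lay above all control libraries. On day 7 the same genes lay below control in every UV library, at 39.8 ± 0.279 CPM in UV and 49.0 ± 4.56 CPM in control for G25844, and at 18.0 ± 1.63 and 24.9 ± 2.44 CPM for G23813 (SD, n = 3 each).

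After G28849, the lowest fitted log2 fold changes on day 7, among called members whose arms did not overlap that day, were those of G2867 and G31288. G2867 had 4.09, 11.9 and 10.7 CPM in UV day 7 and 16.8, 26.3 and 16.0 CPM in control day 7 libraries, a log2 fold change of -0.89 (SE 0.22). G31288 had 17.4, 20.2 and 18.7 CPM in UV day 7 and 29.4, 40.2 and 34.8 CPM in control day 7 libraries, a log2 fold change of -0.86 (SE 0.18). By day 13 the arms of both genes overlapped, with G31288 at 2.49, 8.43 and 5.18 CPM in UV and 2.80, 4.96 and 4.20 CPM in control libraries. With total-count scaling, or without control day 7 replicate 2, UV day 7 replicate 2 or UV day 7 replicate 3, neither kept its day 7 call, and G2867 also lost it without UV day 7 replicate 1 and with read counts.

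On day 10 the lowest fitted log2 fold changes by the same conditions were those of G22727 and G7567. G22727 had 1.19, 3.06 and 2.41 CPM in UV day 10 and 9.10, 7.36 and 8.87 CPM in control day 10 libraries, a log2 fold change of -1.89 (SE 0.34) from 20 and 85 UMIs. G7567 had 4.17, 3.68 and 5.93 CPM in UV day 10 and 11.8, 12.0 and 20.2 CPM in control day 10 libraries, a log2 fold change of -1.73 (SE 0.29). The second identifier of G7567 is shared by 2 genes, so reads could be divided between them and its values are uncertain. Neither gene was called within the shallow replicates 1 and 2 alone, nor was G7567 without control day 10 replicate 3. On day 13 G7567 was higher under UV in every library, at 6.37, 8.80 and 4.93 CPM against 2.63, 3.08 and 3.79 CPM in control, while the arms of G22727 overlapped.

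G28851 and G29666 had the highest control day 7 levels of all members. G28851 had 1104, 1125 and 1128 CPM in UV day 7 and 1542, 1652 and 1272 CPM in control day 7 libraries. On day 13 it had 127, 211 and 129 CPM in UV and 84.1, 91.1 and 115 CPM in control libraries. G29666 had 631, 695 and 690 CPM in UV day 7 and 1049, 1102 and 883 CPM in control day 7 libraries, and 80.3, 121 and 83.5 CPM in UV and 53.3, 59.2 and 70.5 CPM in control day 13 libraries. The arms of both genes stayed apart on days 7 and 13, and both kept falling under UV, to 13.9% and 14.2% of their day 7 CPM. Their UV effects were 1.10 (SE 0.27) and 1.23 (SE 0.20) higher on day 13 than on day 7 (log2), near the median of the members. For G28851 this gain was not called without any 1 of the UV day 7 libraries, of control day 7 replicates 1 and 2 or of control day 13 replicates 1 and 2, nor with total-count scaling.

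**Figure D4:**
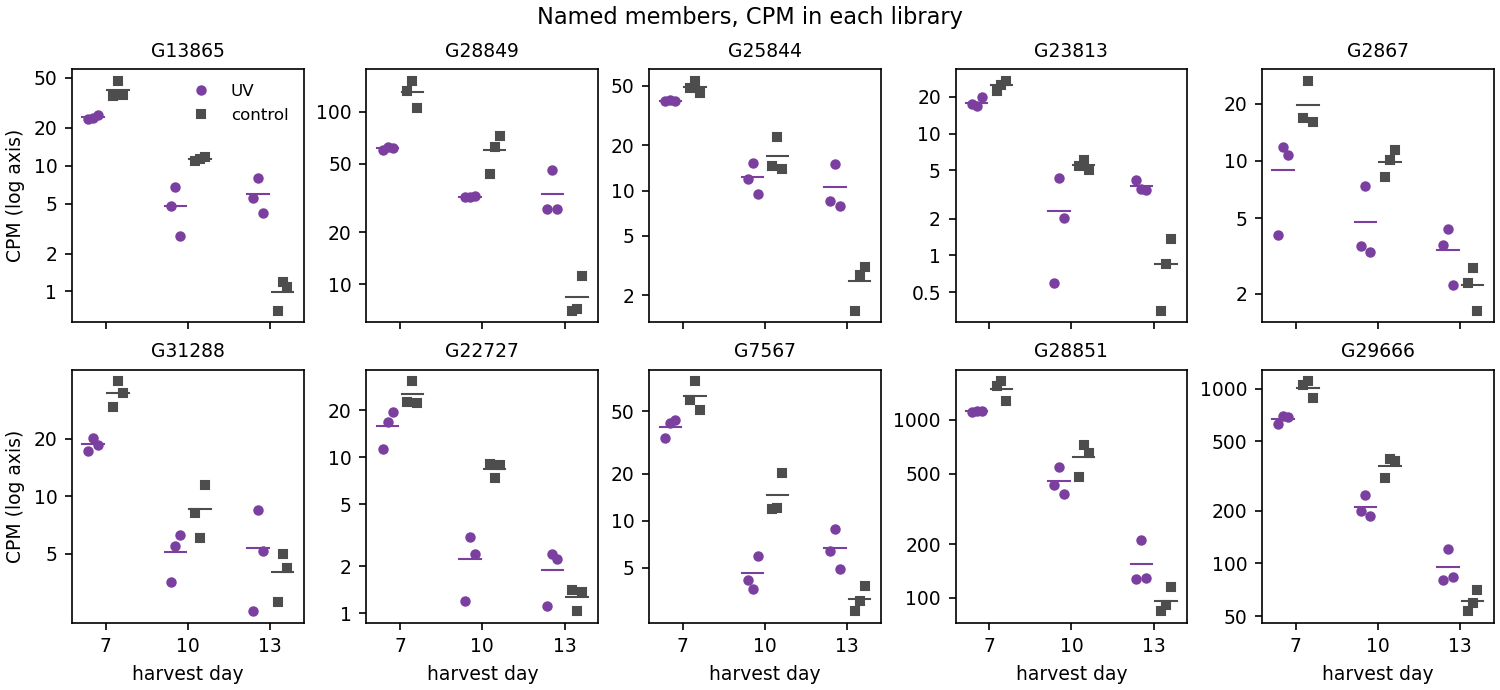
CPM on a log axis in every library of 10 members by harvest day; points are libraries and short lines group means (n = 3). In each panel the UV mean lies below the control mean on days 7 and 10 and above it on day 13; the arms of G2867, G31288 and G22727 overlap on day 13.

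The cap at 200 fell among genes that hardly differed. The last member, G2685, had a gain of the UV difference from day 7 to day 13 of 0.822, and the first gene beyond it, G11348, of 0.820 (log2). Median UV differences on days 7, 10 and 13 were -0.49, -0.61 and 0.58 in the members, and -0.36, -0.47 and 0.32 in the 77 genes that met every criterion but lay beyond the cap.

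A steady decline and the UV pattern often went together. Of the 797 steadily falling genes, 78.4% had a UV difference of -0.25 or lower on day 7, 74.4% on day 10, and 52.3% one of 0.25 or higher on day 13. Among the 13602 other genes with 500 or more UMIs the shares were 13.6%, 14.3% and 9.34%. All 3 criteria were met by 34.8% of the steadily falling genes and by 1.13% of the others. The opposite pattern, higher under UV on days 7 and 10 and lower on day 13, was met by 0 of the 797 and by 42 of the others. Control libraries enter both sides of this comparison: a high control day 7 library makes the early decline steeper and the day 7 UV difference lower, and a low control day 13 library makes the late decline steeper and the day 13 difference higher. The shares are therefore a description. In control cultures the median steps of the members were -1.23 and -1.98. Those of the 520 steadily falling genes not meeting every UV criterion were -1.28 and -1.35. Those of the 32 steadily falling genes with a UV difference under 0.25 in size on each day were -1.01 and -0.998.

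The UV differences were also read in libraries whose values did not enter the criteria, by applying the rule to replicates with 2 of the 3 numbers and reading the third. The left-out libraries still entered the minimum of 500 UMIs and the TMM scaling, and the thresholds were set with all libraries known. Without replicate 1 the rule chose 200 genes, 148 of them members, and in the replicate 1 libraries their median UV differences were -0.61, -0.38 and 0.51 on days 7, 10 and 13. Without replicate 2 it chose 191 genes, 144 of them members, with medians of -0.49, -0.46 and 0.82 in replicate 2. Without replicate 3 it chose 200 genes, 149 of them members, with medians of -0.28, -0.90 and 0.20 in replicate 3. All 9 medians had the direction of the rule. As the labels do not say whether triplicates were separate cultures, a left-out library may repeat a culture already used. In the same libraries the medians of all 14399 genes lay between -0.05 and 0.02.

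The size of the late difference varied with the replicate. The chosen genes were above 0 on day 13 for 185 of 200 in replicate 1, 185 of 191 in replicate 2 and 149 of 200 in replicate 3, against 51.5%, 52.2% and 50.2% of all genes. All 3 directions were met together by 78%, 85.3% and 69% of the chosen genes and by 15.6%, 17.5% and 16.1% of all genes in replicates 1, 2 and 3. In replicate 3 the day 10 difference was largest and the day 13 difference smallest. With total-count scaling the day 13 median in replicate 3 was 0.09 over 191 genes, against -0.07 for all genes.

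Other steadily falling genes, chosen in the same way but not meeting every UV criterion, moved less in the libraries left out. Their medians were -0.44, -0.41 and -0.23 on day 7, -0.20, -0.37 and -0.59 on day 10, and 0.10, 0.38 and 0.03 on day 13 in replicates 1, 2 and 3. In each replicate and on each day the chosen genes lay further from 0 in the direction of the rule. The later step was also shallower under UV, with a median of -0.96, -0.59 and -0.86 in the left-out UV libraries against -1.91, -1.97 and -2.10 in the left-out control libraries. It was shallower under UV for 95.5%, 97.4% and 95.5% of the chosen genes and for 67.8%, 87% and 89.4% of the other steadily falling genes. With 3 replicate numbers that share their libraries between the readings, and genes that are not replicates, no test was made.

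**Figure D5:**
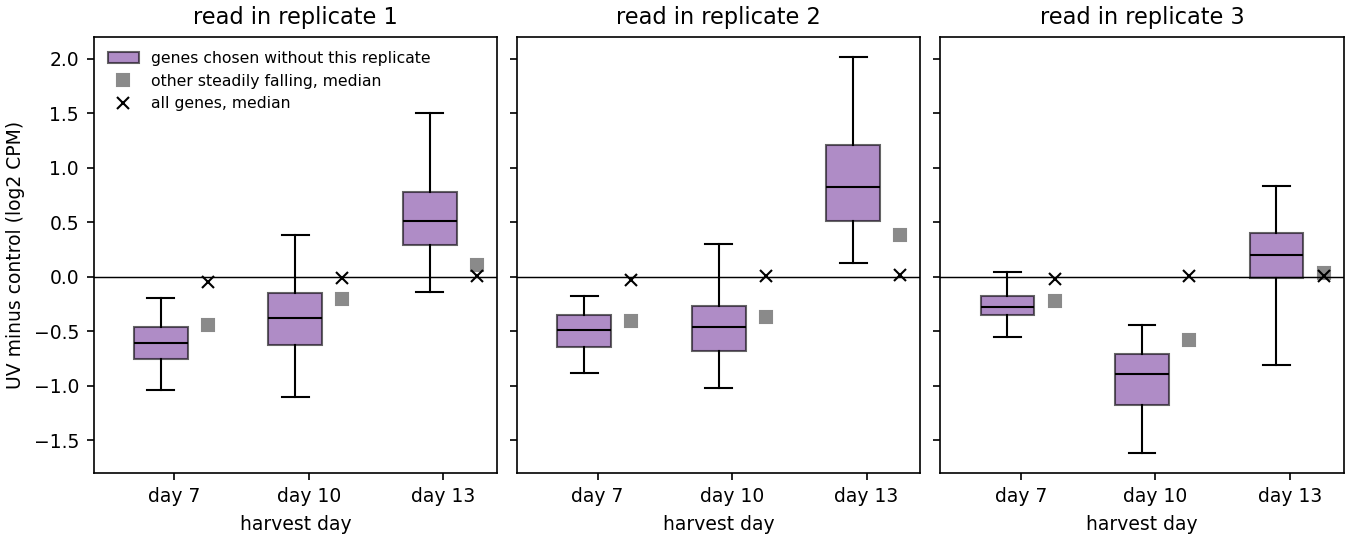
UV minus control in log2 CPM on each day, read in the replicate that was left out when the genes were chosen; boxes give quartiles and median of the chosen genes (n = 200, 191 and 200), whiskers the 5th to 95th percentiles, squares the median of the other steadily falling genes and crosses that of all 14399 genes. In every panel the boxes lie below 0 on days 7 and 10 and centre above 0 on day 13, where the medians were 0.51, 0.82 and 0.20.

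Other properties of the members are given without a test, since criteria on level and change bear on them. Their median total was 5625 UMIs, against 2215 UMIs for all 14399 genes and 3619 UMIs for the other steadily falling genes. Their median biological coefficient of variation, the spread between libraries beyond counting, was 0.114, against 0.0893 for all genes and 0.102 for the other steadily falling genes. UMIs per read had a median of 0.751 in members and 0.776 in all genes. Every member carried a second identifier, which 11 members shared with another gene, so that their values are uncertain. In the table that the authors deposited (the authors' deposited table), on day 7 an adjusted p below 0.05 and a lower level under UV were listed for 63 members, while 87 were lower on day 10 and 81 were higher on day 13, where 1.41%, 1.58% and 1.33% of its 20313 genes were.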

How the data were processed

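Per the labels, RNA of 18 libraries was made into MARS-seq2.0 libraries. The authors deposited UMI counts and read counts per gene, whole numbers that are not normalized, and a DESeq2 table, per the file headers, of log2 fold changes and adjusted p-values. As to aligner, counter, genome build and annotation, these were not given in the sources used here.

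The members and lists were chosen with earlier results of these data known. Log2 CPM for the rule used TMM factors from the genes with at least 500 UMIs and a prior count of 2. Comparisons used edgeR 4.0.16 in R 4.3.3 on UMI counts (quasi-likelihood F-test, two-sided, TMM, robust, filterByExpr with minimum count 10 and total 15, 1 mean per group over all 18 libraries), with Benjamini-Hochberg adjustment over 18196 genes and a threshold of 0.05. All 200 members passed that filter. SE is the absolute log2 fold change over the square root of F. UMI totals of 1060640 to 9216603 set the counting precision. The pipeline was tested on simulated data. Replicates of a group differed by more than counting noise (chi-square per degree of freedom 1.78 to 5.59).

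Named members were those with the largest difference between days, the largest day 13, day 7 or day 10 difference among called members with arms that do not overlap and a mean of at least 5 UMIs, the highest control day 7 level, and those beside the cap, at most 2 each. Lists by function were not made, as no names are paired with the identifiers. Alternatives were other scalings, no filter, DESeq2 1.42.0, limma-voom 3.58.1, a replicate block, read counts, the compared groups alone, single libraries left out, other prior counts and day 10 replicates by depth.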

Additional observations from a re-analysis of the deposited data

Results flagged for a closer look

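The UV difference varied between days 7 and 13 by edgeR's test of the difference itself in 155 of 200 members, each higher on day 13. Of all genes tested, 3.18% were called higher. The members were chosen for this gain, so it is a description. Among the named members the difference between the UV effects was 3.26 for G13865, 3.04 for G28849, 2.38 for G25844, 2.44 for G23813, 1.56 for G2867, 1.36 for G31288, 1.66 for G7567, 1.10 for G28851, 1.23 for G29666 and 0.83 for G2685 (log2). That of G22727, 1.14, did not pass. That of G2685 did not pass without UV day 13 replicate 2 (0.72) or with total-count scaling (0.70).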

How the results depend on the processing

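The counts of members called lower on day 7 and day 10 and higher on day 13 (65, 93 and 78) depended on the processing. On day 7 the count was 6 with total-count scaling, 136 without the low-count filter and 122 with only the 6 day 7 libraries, where 35, 698 and 469 of all genes were called lower, against 313. On day 10 it was 4 within replicates 1 and 2 and 57 within replicate 3. Leaving out 1 of the 18 libraries gave 11 to 109 members on day 7, 23 to 121 on day 10 and 23 to 89 on day 13. The cause of these shifts was not tested. With the replicate block 111, 112 and 89 members were called on the 3 days and 169 for the difference between days 13 and 7. The counts over all genes rose as well, to 480, 425, 322 and 661 in the same directions, against 313, 342, 281 and 579. Same-numbered UV and control libraries correlated at -0.0306 to 0.0468 on day 7, 0.0725 to 0.293 on day 10 and -0.0709 to 0.137 on day 13 in their deviations from group means. With 3 libraries in each group, these values do not settle whether same-numbered libraries were paired. Every UV library correlated best with the control library of its own number on day 10, but UV day 7 replicate 3 and UV day 13 replicates 2 and 3 did not.

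The counts of members for the difference between days 13 and 7, for both UV steps and for the later control step stayed within 1.5 times of their values in every alternative run. Counts over all genes moved further. With total-count scaling 251 genes were called for the difference between days, against 579. In UV day 13 against UV day 10 libraries 1248 were then called lower, against 1977. The control step from day 7 to day 10 was not run in the alternatives. The number of genes meeting every criterion was 277, and 151 with total-count scaling, which chose 131 of the 200 members again. It was 191 to 312 with a library or a replicate number left out, and 144 to 193 members were then chosen again, with 144 to 200 still meeting every criterion. With factors from all genes, a choice made after the data were seen, the members' day 13 median was 0.56. The medians in the replicate left out ranged from -0.61 to -0.28 on day 7, -0.90 to -0.38 on day 10 and 0.20 to 0.82 on day 13, and with total-count scaling, added after the data were seen, from -0.51 to -0.20, -0.89 to -0.37 and 0.09 to 1.04. In the alternatives a named member was run only in the comparison it was named for, or for the difference between days 13 and 7. None changed direction there, and the criteria had set that direction. The remaining days of these genes were not run in the alternatives. G28851 lost its call for the difference between days in 8 of 26 alternatives and G2867 its day 7 call in 6 of 25. Depth limits the lowest members, which had as few as 11 UMIs over control day 13.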
